A study of Mus musculus with 12 samples.

Results

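The comparison described here is that of acetoacetate (AA) with PBS in C2C12 cells kept in differentiation medium (DM): libraries DM-AA 1 to 3 against DM-PBS 1 to 3, which are 6 of the 12 libraries of the series, chosen by their labels alone. C2C12 is an established mouse myoblast line. Its cells proliferate in growth medium (GM), and in DM they leave the cell cycle and fuse into multinucleated myotubes. AA was given for 12 h, and the control cells received PBS for the same 12 h. The other 6 libraries hold the same pair of treatments in GM; they entered the estimate of the spread between libraries and the test of whether a response differed between media. The labels state neither the salt or dose of AA, nor how long the cells had been in DM, nor whether replicate libraries were grown as cultures of their own. P-values therefore reflect the spread among these libraries alone, and that spread may be technical.

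Acetoacetate is one of the ketone bodies that the liver releases during fasting. Muscle takes it up through monocarboxylate transporters, activates it to acetoacetyl-CoA in the mitochondrion with the transferase encoded by Oxct1, and burns it in the citric acid cycle. Differentiation of myoblasts is ordered: the determination factors Myod1 and Myf5 are present in dividing cells, Myog is switched on as cells commit to differentiate, and the fusion proteins and the sarcomere, the contractile unit built of actin and myosin filaments, follow. Growth-factor signalling through ERK and the Id proteins oppose these steps.

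Each DM-PBS library held 7959519 to 9893564 reads within genes and each DM-AA library 8027518 to 8245402, and 12230 of 23446 genes passed the filter on low counts. In a principal component analysis of the 6 DM libraries, the first component held 53.3% of the variance. It separated the 3 AA libraries from the 3 PBS libraries. On the second component DM-PBS 3 and DM-AA 1 had the opposite sign to the other libraries of their groups. Levels are given in CPM, counts per unit of library size after scaling by TMM (a mean carries its SD), and differences as log2 fold changes (AA over PBS) ± SE, taken from the quasi-likelihood fit of edgeR with n = 3 per group. "Past the test" stands for an adjusted p (Benjamini-Hochberg, all 12230 genes) under 0.05, and "rose" and "fell" are used only of such genes. The myoblast label was checked against 8 defining markers: 7 were well above the detection limit, with a summed level of 3474 to 3527 CPM with PBS and 3927 to 4126 with AA, and Mstn was at or near 0 reads. The adipocyte markers summed to 0.247 to 0.509 CPM with PBS and 0.359 to 0.49 with AA (5 of 7 at 0 reads), the endothelial ones to 0.740 to 1.76 and 1.08 to 1.23 (0 of 6 at 0), and the immune ones to 1.60 to 2.76 and 2.09 to 2.87 (2 of 7 at 0). Other marker lists were expressed: the fibroblast and mesenchymal progenitor markers summed to 273 to 290.3 CPM with PBS and 250.2 to 271 with AA (3 of 4 tested fell, 1 of 8 at 0), the neuronal ones to 427 to 451 and 403 to 447 (2 of 3 tested rose and 1 fell, 1 of 6 at 0), and the epithelial ones to 41.3 to 45.1 and 42.2 to 43.5 (0 of 2 tested passed, 0 of 7 at 0). Their part in the results was not tested. The table lists Gapdh, Hmgcs1 and Dmd at 0 reads throughout, so these genes could not be described. GC content moved with the treatment: the deviations of a library from the gene means correlated with transcript GC (Spearman's rho, 12144 genes) at 0.127 to 0.150 for the PBS libraries and at -0.148 to -0.0612 for the AA libraries. The part of this trend in the results was measured by removing it from each library, and those values stand in the closing section.

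AA changed a large share of the transcriptome by small amounts. It moved 3230 of the 12230 genes past the test (26.4%): 1538 were higher (12.6%) and 1692 lower (13.8%). The median size of a called change was 0.30 on the log2 scale. At least 1.5-fold changes were seen in 225 higher (1.84%) and 289 lower genes (2.36%), at least 2-fold changes in 93 and 78, and at least 4-fold changes in 10 and 7. In 3095 of the 3230 called genes the 3 AA libraries lay fully on one side of the 3 PBS libraries; over all tested genes such a separation occurred in 19.9% with AA higher and in 20.2% with AA lower. Calls were more frequent among abundant genes: 13.9% of the quartile with the lowest mean CPM and 41.4% of the quartile with the highest were called, with a median size of 0.71 and 0.22. The plot of fold change against level shows this narrowing, and the plot by gene list shows where the higher and the lower genes fell.

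**Figure D1:**
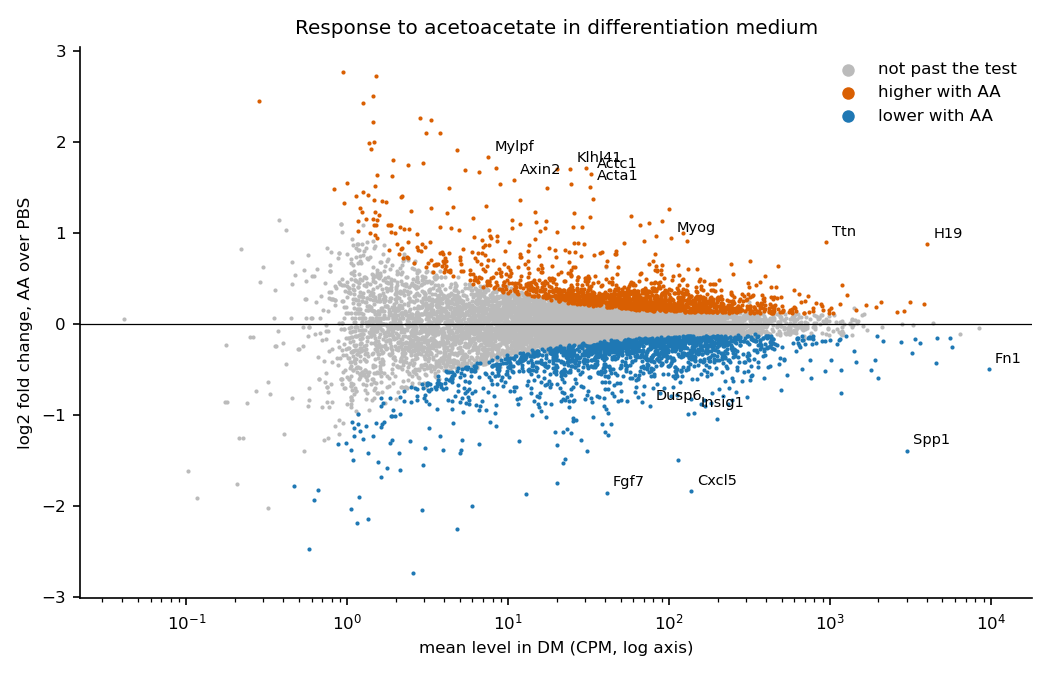
Log2 fold change of AA over PBS in DM (vertical axis) against mean level in DM (CPM, log axis) for the 12230 tested genes; grey points did not pass the test, orange points are the 1538 higher genes, blue points the 1692 lower genes, and a few genes of the text are named. Sarcomere genes lie among the largest rises and Fgf7 and Cxcl5 among the largest falls.

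The genes of the contractile apparatus rose together. Actc1, the cardiac actin that developing skeletal muscle also makes, was at 15.4, 15.4 and 16.7 CPM in the PBS libraries and 39.4, 54 and 54.7 CPM in the AA libraries. Acta1, the skeletal actin, was at 16.3, 16.5 and 17.8 CPM with PBS and 35.7, 51.9 and 56 CPM with AA. In both genes every AA library was above every PBS library, and DM-AA 1 was the lowest of the AA libraries. The rule that names genes of largest change required this separation of both. It required the same of Klhl41, Smyd1, Tmem8c, Fgf7 and Cxcl5 below. A separation with AA higher occurred in 19.9% of all tested genes. Here as throughout, more cells that make a transcript and more of it per cell cannot be told apart in RNA from whole cultures. Actc1 rose by 1.64 ± 0.11 and Acta1 by 1.51 ± 0.12 on the log2 scale; the actin genes are near-identical in sequence, so their reads may be shared. Of 16 tested thin filament and troponin genes 12 rose and 0 fell, with a median of 1.17, against a median of 0.0021 over all tested genes. Among the troponins, the calcium switch of the thin filament, the fast-fibre subunits moved most: Tnnc2, the calcium-binding one, went from 1.22, 1.36 and 0.879 CPM to 3.44, 6.49 and 5.02 CPM, a rise of 2.09 ± 0.28, and Tnni2, the inhibitory one, rose by 1.22 ± 0.22. The cardiac form Tnnt2 (adjusted p = 0.746) did not pass. Neb (nebulin), the ruler of the thin filament, rose by 1.12 ± 0.11, and Lmod3 and Tmod1, which nucleate and cap it, rose by 1.36 ± 0.14 and 1.49 ± 0.23. Klhl41, which stabilises nebulin, was at 9.67, 11.7 and 12.9 CPM with PBS and 30.8, 35.3 and 44.9 CPM with AA and rose by 1.71 ± 0.13.

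The thick filament list behaved likewise, with 11 of 13 tested members higher and 0 lower (median 1.28). Titin (Ttn), the giant spring that links the Z-disc to the M-band, was at 725, 725 and 516 CPM with PBS and at 1192, 1221 and 1265 CPM with AA. The groups did not overlap, DM-PBS 3 was the lowest library, and titin rose by 0.90 ± 0.094. The embryonic myosin Myh3 rose by 1.53 ± 0.17 from 4.49 ± 0.919 to 13.2 ± 2.3 CPM (mean ± SD), the regulatory light chain Mylpf by 1.84 ± 0.21, the M-band protein Myom2 by 0.89 ± 0.096 and the myosin chaperone Unc45b by 2.22 ± 0.39. The adult fast myosins Myh2 and Myh4 and the slow myosin Myh7 had too few reads to test. Mylk2, the skeletal light chain kinase, was at -0.19 ± 0.13 (adjusted p = 0.297). Of 13 tested Z-disc and costamere genes 10 rose and 0 fell (median 0.47): Pdlim3 by 0.97 ± 0.067, Xirp1 by 1.22 ± 0.098, Synpo2l by 0.77 ± 0.063 and Actn3, the actinin of fast fibres, by 0.58 ± 0.056, while the intermediate filament Des rose by only 0.21 ± 0.044 and the filamin Flnc was at -0.069 ± 0.053 (adjusted p = 0.373).

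The windows of 250 bases before the starts of both actin genes are shown because both genes rose and hold the CArG element. This is the site that serum response factor (SRF) recognises in muscle promoters. The windows come from RefSeq on GRCm38.p6 and are written from 5′ to 3′ on the gene's strand. Matches to the CArG consensus and to the E-box CAGCTG (a site of the MyoD family, its own reverse complement) are in capitals. Acta1 lies at chr8:123894776-123895025 and Actc1 at chr2:114052876-114053125, both on the minus strand.
Acta1: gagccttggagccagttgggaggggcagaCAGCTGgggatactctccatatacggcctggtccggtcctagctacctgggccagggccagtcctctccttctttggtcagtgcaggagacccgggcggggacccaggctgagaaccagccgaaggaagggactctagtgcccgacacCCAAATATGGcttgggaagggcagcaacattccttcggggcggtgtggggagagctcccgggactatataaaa
Actc1: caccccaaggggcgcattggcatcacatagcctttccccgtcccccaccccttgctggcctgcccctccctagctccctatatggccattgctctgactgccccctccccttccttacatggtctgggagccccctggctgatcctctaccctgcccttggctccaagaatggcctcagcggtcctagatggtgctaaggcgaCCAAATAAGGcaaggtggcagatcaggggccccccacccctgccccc
Each window held 1 CArG match, and Acta1 held 1 CAGCTG. Of the thin filament genes 12 were matched to a window, and 2 of the 12 held a CArG match (16.7%) against 1.40% of all 27025 promoters. Those 2 were Acta1 and Actc1, which are shown for that match. CArG was also held by 1 of 10 thick filament and 1 of 10 Z-disc promoters (10% each). The immediate early and ERK lists described below, in each of which 13 genes fell, held it in 1 of 16 promoters (6.25% each). CAGCTG was found in 6 of 12 against 12.8%, but also in 4 of 10 promoters of the chemokine and cytokine list (40%), in which no gene rose. Such a match is a description of the letters and not a binding site shown in these cells.

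Transcripts of proteins that couple the membrane signal to calcium release rose as well: 12 of 16 tested members of the excitation-contraction list were higher and 0 lower (median 0.41). The calcium release channel Ryr1 was at 21.6, 20.1 and 17.6 CPM with PBS and 39.8, 49.8 and 44.5 CPM with AA, and its relative Ryr3 rose by 1.09 ± 0.073. The luminal calcium-binding protein Hrc rose by 1.71 ± 0.16, sarcalumenin (Srl) by 1.06 ± 0.12 and the calcium pump of fast fibres Atp2a1 by 0.81 ± 0.12; the pump Atp2a2, made in many tissues, was at 0.016 ± 0.044 (adjusted p = 0.836). At the nerve contact, 6 of 9 tested genes rose and 0 fell (median 0.37). The fetal acetylcholine receptor subunit Chrng rose by 0.81 ± 0.11 and Dok7, the adaptor of the kinase MuSK, by 0.92 ± 0.17, while Musk itself was at -0.043 ± 0.072 (adjusted p = 0.715). The dystrophin complex, which anchors the cytoskeleton to the matrix and is broken in muscular dystrophies, was called about as often as all genes: of 18 tested members 4 rose, 1 fell and 13 did not pass, a called share of 27.8% against 26.4% (median 0.0067). Among those that rose were the sarcoglycan Sgcb (0.30 ± 0.048) and the syntrophin Sntb1 (0.74 ± 0.12). Utrophin (Utrn), the relative that can stand in for dystrophin, was at 242, 232 and 217 CPM with PBS and 235, 230.1 and 208 CPM with AA, groups that overlapped (adjusted p = 0.611). The 1 that fell was dysferlin (Dysf), and its call was lost without DM-AA 1, DM-AA 3, DM-PBS 1 or DM-PBS 3, after correction for GC and length, and with DESeq2.

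**Figure D2:**
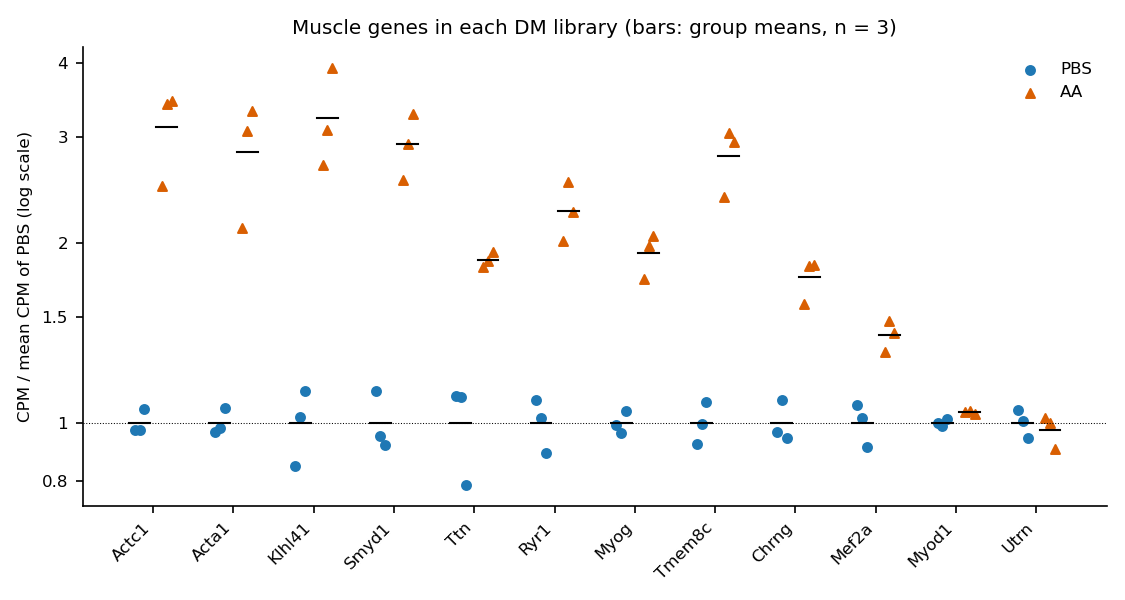
Level of 12 muscle genes in each of the 6 DM libraries, divided by the mean of the 3 PBS libraries (vertical axis, log scale, 1 = PBS mean); each blue circle is a PBS library and each orange triangle an AA library, and horizontal bars are group means. For Actc1, Acta1, Klhl41, Smyd1, Ttn, Ryr1, Myog, Tmem8c, Chrng and Mef2a all AA libraries lie above all PBS libraries, whereas Myod1 and Utrn stay near 1. The naming rule required this separation of Actc1, Acta1, Klhl41, Smyd1 and Tmem8c.

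Among the transcription factors of myogenesis Smyd1 and Myog rose most. Myog was at 69.5, 67.6 and 73.6 CPM with PBS and 122, 139 and 144 CPM with AA and rose by 0.94 ± 0.066. Myod1, the determination factor, was at 165, 163 and 168 CPM with PBS and 172, 173 and 171 CPM with AA. Its AA libraries all lay slightly above its PBS libraries, at 0.059 ± 0.050, which did not pass (adjusted p = 0.425 by edgeR, and 0.0184 after correction for GC and length). The muscle methyltransferase Smyd1, which acts on sarcomere assembly, rose by 1.54 ± 0.12, Mef2a, the partner of MyoD factors, by 0.48 ± 0.061 and Myf5 by 0.27 ± 0.068. Pax7, the satellite cell factor, was at 0.054 ± 0.076 (adjusted p = 0.649). In all 5 of 14 tested factors rose and 1 fell, a called share of 42.9% against 26.4% of all genes. Vgll2, a muscle cofactor of TEAD factors, and Rbm24, a splicing factor of muscle, lay outside the list and rose by 0.87 ± 0.13 and 1.37 ± 0.097.

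The fusion and adhesion list split. The transcripts of both proteins that merge myoblast membranes rose: Tmem8c (myomaker) went from 8.45, 9.12 and 9.92 CPM to 21.9, 27.9 and 27 CPM, a rise of 1.49 ± 0.13, and Gm7325 (myomerger) rose by 0.86 ± 0.16 from 5.1 ± 0.0472 CPM. In all 9 of 22 tested genes rose and 7 fell (median 0.062). Cdh15, the muscle cadherin, rose by 0.41 ± 0.047. The lower ones were Il4ra (-0.61 ± 0.074), the interleukin-4 receptor that recruits myoblasts to myotubes, Vcam1 (-0.32 ± 0.051), Adam12 (-0.30 ± 0.084), Kirrel (-0.28 ± 0.046), Myof (-0.25 ± 0.050), Cd9 (-0.20 ± 0.055) and Dock5 (-0.16 ± 0.048). Of 10 tested genes of muscle energy supply 2 rose and 0 fell, a called share of 20% against 26.4% of all genes. The carbonic anhydrase Car3 rose by 1.11 ± 0.078 and the creatine kinase Ckm by 1.09 ± 0.38. Ckm had only 1.17 ± 0.597 CPM with PBS, and its call was lost without DM-AA 2 (log2 value 0.55), without DM-PBS 2 and with DESeq2. The enolase Eno3 was at 0.10 ± 0.049 and the phosphorylase Pygm at -0.18 ± 0.29 (adjusted p = 0.126 and 0.706).

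**Figure D3:**
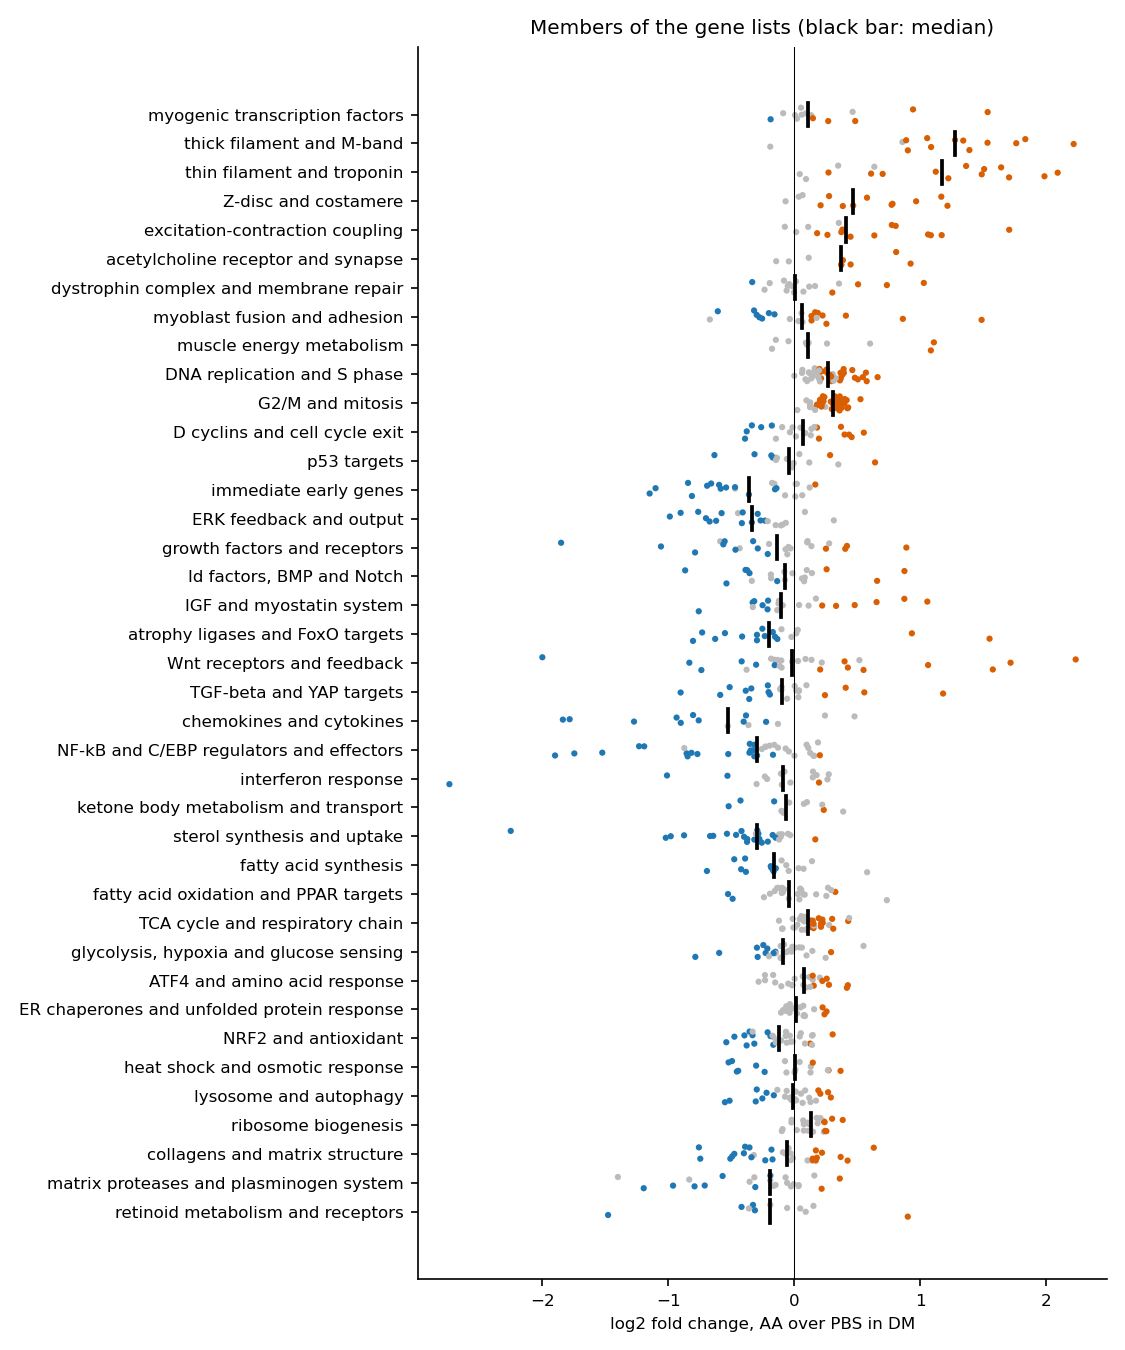
Log2 fold change of AA over PBS in DM (horizontal axis) for each tested member of 39 gene lists; orange points rose, blue points fell, grey points did not pass the test, and the black bar is the list's median. The 2 cell cycle lists and the muscle structure lists lie right of 0, and the ERK, immediate early, chemokine and sterol lists left of it.

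Genes of the cell cycle were higher in the same libraries in which the differentiation genes were higher. Of 43 tested genes of DNA replication and S phase 24 rose and 0 fell (median 0.27), and of 42 genes of G2 and mitosis 34 rose and 0 fell (median 0.31); the changes were small in size. E2f2, an activator of S phase genes, was at 57.2, 59.2 and 57.5 CPM with PBS and 88.4, 97 and 89.7 CPM with AA and rose by 0.66 ± 0.058. The helicase loader Cdc6 rose by 0.54 ± 0.10, the primase subunit Prim1 by 0.51 ± 0.13 and the replication nuclease Fen1 by 0.46 ± 0.055. Among the helicase subunits Mcm2 rose by 0.38 ± 0.056 and Mcm5 by 0.37 ± 0.058, while Mcm7 was at 9.2e-04 ± 0.058 (adjusted p = 0.994). The mitotic cyclin Ccnb1 went from 63.5, 62 and 58.3 CPM to 83.9, 80.5 and 78.3 CPM, a rise of 0.40 ± 0.058 with no overlap between groups. Cdk1, its kinase, rose by 0.37 ± 0.058, the spindle kinase Aurka by 0.40 ± 0.066 and the phosphatase Cdc25b, which activates Cdk1, by 0.42 ± 0.048. Mki67, the proliferation marker, rose by 0.22 ± 0.056 from 866, 862 and 715 CPM to 973, 907 and 962 CPM; without DM-PBS 3 the value was 0.14 and the call was lost (adjusted p = 0.0556). Cdc20 and Plk1 did not pass (adjusted p = 0.814 and 0.104).

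The promoters of Top2a, the topoisomerase that untangles chromosomes, and Ube2c, which ends mitosis, are shown as examples of the mitotic genes that moved together. Capitals mark CCAAT boxes (CCAAT on either strand, the site of NF-Y) and TTTGAA on either strand (the CHR element of mitotic promoters). Top2a lies at chr11:99024190-99024439 on the minus strand and Ube2c at chr2:164769679-164769928 on the plus strand (RefSeq, GRCm38.p6, 250 bases before the start).
Top2a: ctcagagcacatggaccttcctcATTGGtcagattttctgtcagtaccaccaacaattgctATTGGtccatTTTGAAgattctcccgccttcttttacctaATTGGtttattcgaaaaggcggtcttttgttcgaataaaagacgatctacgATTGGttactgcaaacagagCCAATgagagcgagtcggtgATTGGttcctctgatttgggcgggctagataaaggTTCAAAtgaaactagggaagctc
Ube2c: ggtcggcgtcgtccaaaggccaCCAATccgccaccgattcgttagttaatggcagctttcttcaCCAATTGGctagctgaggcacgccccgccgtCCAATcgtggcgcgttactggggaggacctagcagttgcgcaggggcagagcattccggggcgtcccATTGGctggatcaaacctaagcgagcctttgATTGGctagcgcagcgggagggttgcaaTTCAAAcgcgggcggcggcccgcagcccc
Each window held 6 CCAAT boxes, and TTTGAA was matched 2 times in Top2a and 1 time in Ube2c. Of 35 G2 and mitosis genes with a window, 27 held CCAAT (77.1%) against 34.5% of all promoters, and 11 held TTTGAA (31.4%) against 16.3%. Of the replication genes 20 of 36 held CCAAT (55.6%) and 3 held TTTGAA (8.33%). CCAAT was not particular to the lists that rose. It was held by 17 of 19 sterol promoters (89.5%), a list in which 20 genes fell. The endoplasmic reticulum chaperone list, in which 18 genes did not pass, also had 17 of 19 (89.5%). These matches too describe letters and not binding sites shown in these cells.

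The D cyclins and the genes of cell cycle exit did not move as 1 group: 7 of 22 tested rose and 5 fell. Ccnd1, the cyclin that growth factors induce, fell by 0.34 ± 0.050 from 245 ± 7.26 to 194 ± 12 CPM, while Ccnd3, the D cyclin of differentiating muscle, rose by 0.44 ± 0.053 from 163 ± 4.31 to 221 ± 13.3 CPM. The CDK inhibitor Cdkn1a rose by 0.20 ± 0.047, as did the pocket protein Rbl1 (0.37 ± 0.069), the stress protein Gadd45g (0.55 ± 0.067) and the repressors E2f7 (0.40 ± 0.060) and E2f8 (0.46 ± 0.069). Cdk6, Rbl2, Ccng2 and Btg1 fell by 0.18 to 0.39; without DM-AA 3 only 3 members fell past the test. Of 16 p53 targets 2 rose and 4 fell, a called share of 37.5% against 26.4% of all genes. Among them were the pro-apoptotic genes Pmaip1 (0.64 ± 0.080) and Bbc3 (-0.63 ± 0.11).

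Genes that report growth-factor signalling through ERK fell. Of 21 tested ERK feedback and output genes 13 fell and 0 rose (median -0.34), and of 23 immediate early genes 13 fell and 1 rose (median -0.36). Dusp6, the phosphatase that switches ERK off and is induced by it, was at 95.8, 107 and 94.2 CPM with PBS and 54, 57.1 and 47.6 CPM with AA and fell by 0.90 ± 0.066. Egr1, an immediate early factor, was at 476, 491 and 437 CPM with PBS and 321, 315 and 293 CPM with AA and fell by 0.60 ± 0.050. Neither gene's groups overlapped. Egr2 and Nr4a2, factors of the same early class, fell by 1.10 ± 0.079 and 1.15 ± 0.12. Hmga2, a chromatin protein of dividing progenitors, fell by 0.99 ± 0.063 from 174 ± 6.77 to 87.7 ± 5.28 CPM, Etv5 and Etv1, ERK-dependent ETS factors, by 0.76 ± 0.12 and 0.67 ± 0.12, and the EGF receptor inhibitor Errfi1 by 0.62 ± 0.050. Myc fell by 0.54 ± 0.070. Spry1 and Spry2, feedback inhibitors of the same pathway, were at 0.31 ± 0.14 and 0.085 ± 0.056 (adjusted p = 0.0892 and 0.283), as were Fos and Nr4a1 at -0.16 ± 0.13 and 0.0088 ± 0.12 (adjusted p = 0.416 and 0.968).

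Growth factor ligands and receptors moved in both directions, with 9 of 24 tested members down and 4 up (median -0.13). Fgf7, a fibroblast growth factor that acts on epithelia, was at 65.9, 61.5 and 64.7 CPM with PBS and 20.9, 14.9 and 17.5 CPM with AA. No AA library reached a level of 21 CPM and no PBS library was below 61, and Fgf7 fell by 1.85 ± 0.086. Hgf, the ligand that wakes satellite cells, fell by 1.06 ± 0.10, whereas its receptor Met rose by 0.25 ± 0.047. The receptors Fgfr1 and Pdgfrb fell by 0.56 ± 0.048 and 0.47 ± 0.047, while Fgfr4, the receptor of differentiating myoblasts, rose by 0.89 ± 0.10. Among Id, BMP and Notch genes 3 rose and 6 fell of 20, a called share of 45% against 26.4% of all genes. Id1, an inhibitor of the MyoD family, fell by 0.54 ± 0.075, while Id2 rose by 0.26 ± 0.096, a call lost under 8 alternatives. The BMP antagonist Grem1 fell by 0.87 ± 0.056 from 234 ± 10.6 to 129 ± 5.53 CPM, and the Notch ligand Dll1 rose by 0.88 ± 0.096.

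The insulin-like growth factor system moved in both directions, with 6 of 20 tested members up and 6 down. H19, an imprinted non-coding RNA, was at 2792, 2862 and 2889 CPM with PBS and 4543, 5536 and 5581 CPM with AA and rose by 0.87 ± 0.062. Igf2, its imprinted neighbour and an autocrine factor of differentiation, shares 62.8% of its exon length with other genes on its strand and rose by 1.06 ± 0.13 from 6.8 ± 0.52 to 14.2 ± 0.723 CPM. The adaptor Irs1 rose by 0.33 ± 0.047 and Irs2 fell by 0.32 ± 0.083. Of the binding proteins, Igfbp5 and Igfbp3 rose by 0.22 ± 0.046 and 0.65 ± 0.14 and Igfbp4 fell by 0.76 ± 0.060. Genes of atrophy and of the FoxO factors were mostly lower, with 12 of 18 down and 2 up (median -0.20): the ubiquitin ligase Fbxo32 was at 313, 300.1 and 296 CPM with PBS and 199, 192 and 197 CPM with AA and fell by 0.63 ± 0.048. Foxo3 and Foxo1 fell by 0.41 ± 0.072 and 0.30 ± 0.065, Cited2 by 0.80 ± 0.055 and the autophagy gene Gabarapl1 by 0.55 ± 0.047. Trim63, the other muscle ligase, rose by 1.55 ± 0.43 at very low levels (0.507 ± 0.318 and 1.5 ± 0.454 CPM).

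Wnt pathway genes moved in both directions, with 8 of 27 tested higher and 6 lower. Feedback genes that Wnt signalling induces were among those that rose: Axin2, a scaffold of the complex that degrades beta-catenin, was at 4.78, 5.55 and 6.15 CPM with PBS and 12.9, 18.1 and 17.8 CPM with AA and rose by 1.58 ± 0.15, and Nkd2, an inhibitor of Dishevelled, went from 15.1, 12.7 and 14.6 CPM to 40.0, 43.7 and 56 CPM, a rise of 1.72 ± 0.11. Lgr5, an R-spondin receptor, rose by 2.23 ± 0.28 from 1.18 ± 0.231 to 5.5 ± 1.69 CPM, whereas its relative Lgr6 fell by 2.0 ± 0.21. The nuclear effectors Tcf7 and Lef1 rose by 0.55 ± 0.076 and 0.43 ± 0.10. Notum, another gene of this kind, was at 0.14 ± 0.31 (adjusted p = 0.789). Among TGF-beta and YAP targets 4 rose and 9 fell of 23. Tgfb2 rose by 1.18 ± 0.088 and its receptor Tgfbr2 by 0.41 ± 0.044, while Tgfb1 fell by 0.51 ± 0.055. Ctgf fell by 0.90 ± 0.059 and Thbs1 by 0.59 ± 0.051, and Cyr61, an immediate YAP target, was at 0.016 ± 0.049 (adjusted p = 0.853).

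Chemokine and cytokine genes fell. Of 15 tested, 10 were lower and 0 higher (median -0.53). Cxcl5, a neutrophil chemokine, was at 208, 192 and 242 CPM with PBS and 68, 58.4 and 53 CPM with AA and fell by 1.84 ± 0.080. The monocyte chemokine Ccl2 was at 48.4, 51.8 and 54.8 CPM with PBS and 32, 26.7 and 24 CPM with AA and fell by 0.90 ± 0.081. In both the highest AA library was well below the lowest PBS library. Cxcl1 fell by 0.93 ± 0.091, Cxcl12, which guides progenitors, by 0.76 ± 0.050, Il1rn, the interleukin-1 receptor antagonist, by 1.27 ± 0.091, Cx3cl1 by 0.80 ± 0.075 and Csf1 by 0.38 ± 0.048. Of 35 NF-kB and C/EBP regulators and effectors 18 fell and 1 rose (median -0.29). The factors Cebpd and Cebpa, which drive inflammatory and adipogenic genes, fell by 1.52 ± 0.095 and 0.85 ± 0.11. Cebpb varied among the controls, with 22.6, 56.5 and 13.7 CPM in PBS and 7.24, 13.1 and 7.06 CPM in AA, and fell by 1.75 ± 0.34; without DM-PBS 2 the value was -1.02. Nfkbiz fell by 0.85 ± 0.061, the cyclooxygenase Ptgs2 by 0.82 ± 0.072, the cytokine receptor Osmr by 0.77 ± 0.062 and Socs3, which damps such receptors, by 0.52 ± 0.056. The core subunits Nfkb1 and Rela fell by 0.33 ± 0.052 and 0.17 ± 0.052, the call of Rela being lost once GC and length were corrected for and without DM-AA 2 or DM-PBS 3, and the feedback genes Nfkbia and Tnfaip3 did not pass (adjusted p = 0.069 and 0.0999). Of 16 interferon response genes 3 fell and 1 rose, a called share of 25%, below the 26.4% of all genes. Ifit1 fell by 2.74 ± 0.33 from a low level (3.66, 4.44 and 5.27 CPM with PBS and 0.368, 0.735 and 0.837 CPM with AA), while Ifit2 and Irf1 did not pass (adjusted p = 0.171 and 0.379).

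The promoter of Cxcl1 is shown for the NF-kB consensus that its family of chemokines carries. It lies at chr5:90890995-90891244 on the plus strand (RefSeq, GRCm38.p6, 250 bases before the start), and capitals mark the overlapping pair of matches to the NF-kB consensus.
Cxcl1: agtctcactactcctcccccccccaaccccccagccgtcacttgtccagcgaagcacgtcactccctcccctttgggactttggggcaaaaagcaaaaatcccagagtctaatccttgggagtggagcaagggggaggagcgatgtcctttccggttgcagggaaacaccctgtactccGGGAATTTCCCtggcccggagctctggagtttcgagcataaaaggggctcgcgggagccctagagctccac
The consensus was matched on at least 1 strand in 4 of 10 chemokine and cytokine promoters (40.0%) and in 8 of 28 promoters of the NF-kB and C/EBP list (28.6%), against 7.01% of all promoters. Other lists held it about as often: 3 of 8 retinoid promoters (37.5%), 5 of 16 immediate early ones (31.2%) and 5 of 19 endoplasmic reticulum chaperone ones (26.3%). A match is a description of the letters and not a binding site shown in these cells.

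Of 12 tested genes that handle ketone bodies themselves 1 rose, 3 fell and 8 did not pass (median -0.063), a called share of 33.3% against 26.4% of all genes. Oxct1, which activates AA for oxidation, was at 228, 238 and 252 CPM with PBS and 224, 216 and 235 CPM with AA, groups that overlapped (adjusted p = 0.222). The transporter Slc16a1 was at -0.10 ± 0.046 and Bdh1, which interconverts AA and 3-hydroxybutyrate, at 0.10 ± 0.33 (adjusted p = 0.106 and 0.861). Acat1, which splits acetoacetyl-CoA in the mitochondrion, rose by 0.23 ± 0.065 (adjusted p = 0.0509 without DM-PBS 3). The cytosolic enzymes that turn AA towards lipid synthesis fell: Aacs by 0.43 ± 0.054 and Acat2 by 0.52 ± 0.051. Slc16a11, a monocarboxylate transporter family member outside the list, fell by 1.19 ± 0.084, from 52.7, 55.9 and 57.5 CPM to 28.4, 24 and 20.5 CPM.

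Lipid synthesis genes were lower. Of 28 tested genes of sterol synthesis and uptake 20 fell and 1 rose (median -0.30), and of 17 genes of fatty acid synthesis 10 fell and 0 rose (median -0.16). Insig1, the anchor of the sterol sensor, was at 189.6, 193 and 188 CPM with PBS and 108, 94.8 and 86.2 CPM with AA and fell by 0.98 ± 0.063. Along the pathway Mvd, Pmvk and Mvk of the mevalonate branch fell by 0.67 ± 0.088, 0.64 ± 0.094 and 0.46 ± 0.085, and Lss, which closes the sterol rings, by 0.53 ± 0.062. The epoxidase Sqle did not pass (adjusted p = 0.0569), and Cyp51 was the 1 member that rose, by 0.17 ± 0.052, with its call lost without DM-AA 2, DM-AA 3 or DM-PBS 3. Srebf1, the factor of lipid synthesis, fell by 0.28 ± 0.054. Abca1, the cholesterol exporter, fell by 2.25 ± 0.25 from 7.13, 7.28 and 9.67 CPM to 2.21, 1.71 and 1.08 CPM. Fasn, the fatty acid synthase, was at 1206, 1179 and 1076 CPM with PBS and 902, 901 and 840.0 CPM with AA and fell by 0.39 ± 0.052, Acly, which makes cytosolic acetyl-CoA, by 0.42 ± 0.047 and Acaca, which commits it to fatty acids, by 0.38 ± 0.058.

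Oxidative genes showed small rises or none. Of 34 tested genes of the citric acid cycle and respiratory chain 14 rose and 0 fell (median 0.11). The called share was 41.2% against 26.4% of all genes. Largest of the 14 was Idh3a, a dehydrogenase subunit of the cycle, at 0.43 ± 0.058 from 52.3 ± 2.16 to 70.3 ± 1.71 CPM. Atp5o rose by 0.31 ± 0.063 and Cyc1, a cytochrome of complex III, by 0.30 ± 0.056. The number that rose was 6 without DM-AA 3 and 8 without DM-PBS 1. Fatty acid oxidation genes were below the share of 26.4% over all genes, with 1 of 25 higher, 2 lower and 22 not past the test; Cpt1a, the entry step, was at -0.043 ± 0.047 and Pdk4, the switch away from glucose, at 0.028 ± 0.070 (adjusted p = 0.547 and 0.811). Of 28 glycolysis, hypoxia and glucose-sensing genes 9 fell and 1 rose (median -0.089), a called share of 35.7% against 26.4% of all genes. The glucose transporter Slc2a1 fell by 0.29 ± 0.057 and Ndrg1, a hypoxia-responsive gene, by 0.60 ± 0.075, while Ldha, Pkm and Txnip did not pass (adjusted p = 0.541, 0.843 and 0.84).

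Of 25 ATF4 and amino acid response genes 7 rose and 0 fell, a called share of 28% and so close to the 26.4% of all genes. Atf4 rose by 0.28 ± 0.049 and Atf5 by 0.42 ± 0.054, while Ddit3 and Trib3 did not pass (adjusted p = 0.111 and 0.993, edgeR). The number that rose was 4 without DM-AA 1 or DM-AA 3. Of 21 chaperones and unfolded protein genes of the endoplasmic reticulum 3 rose and 0 fell, below the background share, and Hspa5, its main chaperone, was at 0.022 ± 0.045 (adjusted p = 0.759). Among 30 NRF2 and antioxidant genes 2 rose and 10 fell, a called share of 40% against 26.4% of all genes. The glutathione gene Gclm fell by 0.54 ± 0.097 and the metallothioneins Mt1 and Mt2 by 0.40 ± 0.077 and 0.48 ± 0.089. Hmox1 was at -0.060 ± 0.073 (adjusted p = 0.593, edgeR). Of 17 heat shock and osmotic genes 3 rose and 6 fell, a called share of 52.9%. The osmotic regulator Nfat5 and the osmolyte transporter Slc5a3 fell by 0.23 ± 0.050 and 0.44 ± 0.062, and the mitochondrial chaperones Hspe1 and Hspd1 rose by 0.37 ± 0.069 and 0.27 ± 0.052. Of 28 lysosome and autophagy genes 4 rose and 7 fell, a called share of 39.3% against 26.4% of all genes. The autophagy genes Wipi1 (-0.51 ± 0.057) and Ulk1 (-0.30 ± 0.054) were among the 7. Ribosome biogenesis genes were up in 7 of 22 and down in 0, a called share of 31.8% against 26.4% of all genes, with Nop58 at 0.39 ± 0.068.

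Genes of the extracellular matrix moved in both directions. Of 30 collagen and matrix genes 9 rose and 12 fell; without DM-AA 3 the number that rose was 4. Fibronectin (Fn1) was at 11688, 11494 and 10809 CPM with PBS and 8247, 8017 and 7899.5 CPM with AA and fell by 0.49 ± 0.046, and the cross-linking oxidases Lox and Loxl1 fell by 0.76 ± 0.050 and 0.75 ± 0.062. Tenascin (Tnc) fell by 0.51 ± 0.056 and the fibrillar collagen Col3a1 by 0.40 ± 0.048, whereas Col1a1 and Col1a2 did not pass (adjusted p = 0.129 and 0.897). Versican (Vcan) rose by 0.42 ± 0.054, and the chains of collagen VI, which surrounds muscle fibres, rose by 0.22 ± 0.053, 0.37 ± 0.074 and 0.18 ± 0.051 (Col6a1, Col6a2 and Col6a3). Of 23 matrix protease and plasminogen genes 2 rose and 7 fell, a called share of 39.1% against 26.4% of all genes. F3, the tissue factor that starts coagulation, fell by 1.20 ± 0.094, Timp1 by 0.57 ± 0.053 and the aggrecanase Adamts5 by 0.71 ± 0.078. Spp1 (osteopontin), a secreted matrix protein that C2C12 cells make, was at 4163, 4442 and 4498 CPM with PBS and 1799, 1624 and 1578 CPM with AA and fell by 1.39 ± 0.049. With it the osteoblast and chondrocyte marker list summed to 4406 to 4710 CPM with PBS and 1742 to 1965 with AA, with 2 of its 9 genes at 0 reads in DM; Sox9 fell by 0.70 ± 0.062 and Runx2 by 0.18 ± 0.059, the latter call being lost under several alternatives. Of 11 retinoid genes 4 fell and 1 rose, a called share of 45.45%. Dhrs3, a retinaldehyde reductase, fell by 1.48 ± 0.10 and the receptors Rarg, Rara and Rxrb by 0.42 ± 0.050, 0.31 ± 0.064 and 0.33 ± 0.082. The retinol transporter Stra6 rose by 0.90 ± 0.13.

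Some of the largest changes lay outside these lists. Enpp2 (autotaxin), which makes lysophosphatidic acid, was at 8.65, 8.51 and 11.2 CPM with PBS and 25.4, 30.5 and 35.8 CPM with AA and rose by 1.70 ± 0.13. Tgm2, a protein cross-linking transglutaminase, rose by 1.26 ± 0.074, the fibronectin domain gene Fndc1 by 1.13 ± 0.080, the carbonic anhydrase Car2 by 1.13 ± 0.12 and the small GTPase gene Rasl11b by 1.22 ± 0.12. Among the lower genes, Gprin3 fell by 1.40 ± 0.099, the acyl-CoA synthetase Acsbg1 by 1.33 ± 0.098, the annexin Anxa8 by 1.22 ± 0.10, the kinase Pim1 by 1.19 ± 0.11, the acute-phase gene Saa3 by 1.23 ± 0.25 and Enpp1, which makes pyrophosphate, by 1.19 ± 0.11. In each of these genes the 3 AA libraries lay on one side of the 3 PBS libraries, which the rule for naming them required.

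The response in DM overlapped with that in GM, where 2534 of the same 12230 genes (20.7%) were past the test. The 2 comparisons share no library, but they come from the same fit and its estimate of the spread. Transcript GC moved with the treatment in GM too. The deviations correlated with it at 0.00536 to 0.211 for the GM-PBS libraries and at -0.177 to -0.114 for the GM-AA libraries. The part of this trend in the overlap was not tested. A total of 1341 genes were called in the same direction in both, 553 higher and 788 lower, which is 41.5% of the genes called in DM and 52.9% of those called in GM; 55 were called in opposite directions. The test of the difference between the responses called 641 genes (5.24%), 315 with a more positive response in DM (2.58%) and 326 with a more negative one (2.67%). Of the 3230 genes called in DM, 479 also differed from GM in this test.

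The cell cycle lists held many of these. Of the 43 replication genes 24 had a more positive response in DM than in GM and 0 a more negative one, and of the 42 G2 and mitosis genes 30 and 0. In GM none of either list rose, while 15 replication and 7 mitosis genes fell. Top2a rose by 0.42 ± 0.044 in DM and was at -0.12 ± 0.044 in GM. The cyclin E gene Ccne1 (0.37 ± 0.099 and -0.27 ± 0.070), Mcm5 (0.37 ± 0.058 and -0.21 ± 0.049) and Aurkb (0.30 ± 0.057 and -0.25 ± 0.054) were past the test in both media with opposite signs. Over all alternatives tried, leaving out each library included, 24 to 33 G2 and mitosis genes and 18 to 26 replication genes had a more positive response in DM. The scatter of the 2 responses shows the cell cycle genes right of 0 in DM and around or below 0 in GM.

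**Figure D4:**
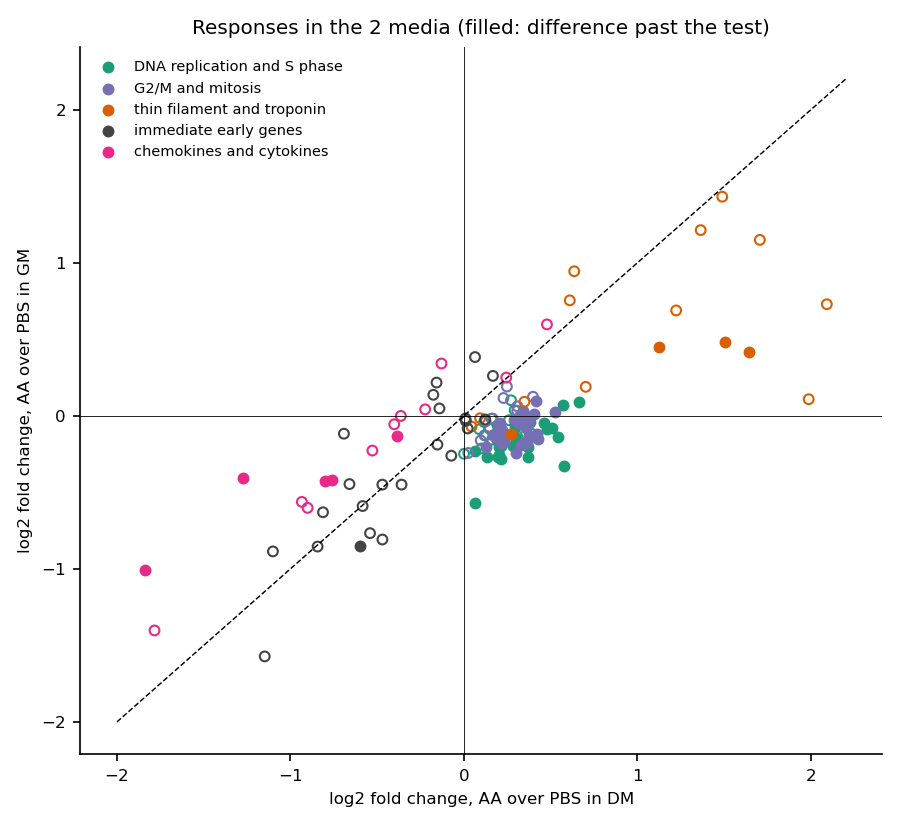
Log2 fold change of AA over PBS in DM (horizontal axis) and in GM (vertical axis) for 5 gene lists; filled points differed between the media in the test of the difference (adjusted p under 0.05), open points did not, and the dashed line marks equal responses. The filled points of the replication, mitosis and thin filament lists lie below the line, and most immediate early genes lie near it in the lower left.

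Fewer muscle filament genes passed the test in GM, where 5 of 13 thick filament and 6 of 16 thin filament genes rose and 0 fell. Actc1, Mylpf, Tmem8c and Hrc did not pass there, and Myod1 and Flnc fell in GM (log2 changes of -0.34 ± 0.049 and -0.23 ± 0.054). Of the thin filament genes 4 had a more positive response in DM: Actc1, Acta1, Tpm2 and Neb, the last with a call that was lost under 7 alternatives. Myog and Tmem8c also had a more positive response in DM (adjusted p = 0.0105 and 0.00449, edgeR), calls that were lost for Tmem8c without GM-PBS 2 and for Myog without GM-AA 1 or GM-PBS 3, whereas Ttn, Smyd1, Klhl41 and Ryr1 did not differ between media past the test (adjusted p = 0.829, 0.977, 0.344 and 0.474). In GM 13 of 23 immediate early genes fell and 2 rose, and 13 of 21 ERK genes fell and 0 rose, where 20.7% of all genes were called. The responses of 1 of the 23 and 2 of the 21 differed between media, against 5.24% of all genes. Chemokines were lower in both, with 8 down in GM and 5 falling further in DM, a number that was 3 without DM-AA 3 or GM-AA 3, and 8 without DM-AA 1 or after correction for GC and length. Sterol genes fell in larger number in DM (20 against 11), but the responses of only 6 differed between media, and 2 to 3 without any one of DM-AA 2, DM-AA 3, DM-PBS 1, DM-PBS 2, GM-AA 1, GM-PBS 2 or GM-PBS 3. F3 and Grem1 fell in DM and stood at -0.0043 ± 0.11 and -0.024 ± 0.049 in GM, and the differences were past the test. Of the 28 lysosome and autophagy genes 15 rose and 4 fell in GM, and 8 had a more negative response in DM, against 2.67% of all genes; without DM-PBS 2 the number was 5. Mylk2 and Txnip rose in GM (by 1.01 ± 0.093 and 0.98 ± 0.12) and did not pass in DM.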

How the data were processed

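The library kit, its strand and the counting tool are not given in the sources used for this text. Alignment was to the mouse build mm9 by BWA 0.5.9-r16, per the submitters' processing notes. The deposited table holds raw read counts per gene for all 12 libraries, with no sample columns that could not be matched to a label, and the authors' RPKM values, per the file headers. The counts were tested as deposited, and RPKM was used only as a level filter for naming genes.

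Of 23446 genes, 12230 passed edgeR's filterByExpr and held at least 99.9% of the counts of each library. Counts were scaled by TMM and fitted with edgeR 4.0.16 (quasi-likelihood, 4 group means, all 12 libraries, residual df 8) in R 4.3.3, with Benjamini-Hochberg adjustment at 0.05. The SE was derived from the log2 fold change and its F value. The median SE was 0.082 on the log2 scale, which sets the size of change that can be called. On counts simulated for the comparison of AA with PBS in DM (12127 genes), 87.8% of 1.5-fold and 93.0% of 2-fold changes were recovered, and 5.79% of calls were false. The simulation gave every gene the same spread between libraries (coefficient of variation 4.08%) and no GC trend. It changed only 98 tested genes by 1.5-fold and 100 by 2-fold. In the real counts the spread differs between genes and more genes moved, so these rates need not hold for them. Replicates of a group differed by more than sampling noise (chi-square per degree of freedom 1.43 to 2.84), so none was counted as a duplicate.

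Genes were named by a rule. It took the 15 higher and 15 lower genes of largest change past the test, with separated groups and mean RPKM of at least 5. From each of 39 lists and 8 cell type marker lists it took up to 4 members past the test by smallest p. The 6 highest and 6 lowest in the difference between media and a fixed set of 13 were added. Of the genes named in the text, 135 came from this rule and 114 did not, and those were chosen after their values were seen. Some members of the lists are not reported here by name. The members and lists were chosen with earlier results of these data known. Alternatives were RLE scaling, no TMM, no filter, the replicate block, removal of the GC and length trend, the 6 DM libraries alone, leaving out each library, and DESeq2 1.42.0. Gene properties came from GENCODE M21, matched for 23090 genes (98.5%), and promoters from RefSeq (GRCm38.p6); no coordinates were taken across builds. Since strand is not given, genes that overlap others are uncertain: 26 named genes overlap an antisense exon over more than 10% of their length, among them Tnnc2 (74.0%), Fen1 (84.2%) and Mt2 (73.5%).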

Additional observations from a re-analysis of the deposited data

Results flagged for a closer look

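The response to AA differed between DM and GM, by edgeR's test of the difference itself, in 641 genes, and the genes named in the text that were among them are given here with the response in DM minus the response in GM on the log2 scale. A positive value is a more positive response in DM.

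Among muscle genes the positive differences were those of Actc1 (1.22), Acta1 (1.02), Mylpf (1.20), Myh3 (0.97), Neb (0.67), Tpm2 (0.39), Hrc (1.56), Xirp1 (0.91), Tmem8c (1.01), Myog (0.59), Mef2a (0.33) and Myod1 (0.40), and the negative ones those of Mylk2 (-1.20), Myf5 (-0.37), Adam12 (-0.38) and Vcam1 (-0.33).

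The cell cycle genes were all positive: Cdc6 (0.68), E2f2 (0.57), Prim1 (0.58), Mcm2 (0.51), Mcm5 (0.58), Fen1 (0.51), Ccne1 (0.64), Cdk1 (0.50), Aurka (0.39), Aurkb (0.54), Cdc25b (0.32), Plk1 (0.33), Top2a (0.54), Ube2c (0.50) and Mki67 (0.31). Positive too were the regulators Ccnd3 (0.38), Cdkn1a (0.25), Rbl1 (0.39), E2f7 (0.56), E2f8 (0.49), Gadd45g (0.74) and Id2 (0.71), while Btg1 was negative (-0.29).

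Of 15 chemokine and cytokine genes 5 had a more negative response in DM and 0 a more positive one. Of 35 NF-kB and C/EBP genes 7 were more negative and 1 more positive. Ccl2, Nfkbiz, Osmr and Ptgs2 did not differ past the test. The named inflammatory genes with a more negative response were Saa3 (-1.58), Cxcl5 (-0.83), Cxcl12 (-0.34), Cx3cl1 (-0.38), Il1rn (-0.87), Csf1 (-0.25), Cebpd (-0.87) and Anxa8 (-1.03). Named lipid and stress genes with a more negative response were Lss (-0.44), Acat2 (-0.38), Aacs (-0.28), Slc16a11 (-0.56), Gclm (-0.63), Slc5a3 (-0.29), Ndrg1 (-0.34), Txnip (-1.0), Gabarapl1 (-0.25) and Cited2 (-0.29). Of these Txnip rose in GM and did not pass in DM.

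Signalling genes with negative differences were Fgf7 (-0.70), Hmga2 (-0.68), Grem1 (-0.84), Pdgfrb (-0.22), Igfbp4 (-0.51), Igfbp5 (-0.35), Rarg (-0.26), Ctgf (-0.38), Thbs1 (-0.55) and Gprin3 (-0.79), and those with positive ones Egr1 (0.25), Igfbp3 (0.86), Tgm2 (0.65) and Fndc1 (0.74). Matrix genes were F3 (-1.19), Spp1 (-0.37), Fn1 (-0.24), Lox (-0.25), Loxl1 (-0.36), Col3a1 (-0.29) and Vcan (0.57), and the adhesion gene Zyx stood at -0.29. These differences are reported as values, and their cause was not tested. Groups of 3 libraries are too small for a test of single outlying libraries.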

How the results depend on the processing

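The counts of genes called in DM and of genes that differed between media stayed within 1.5 times of the main count under every alternative, and no named gene reversed. The total called in DM was 2384 to 2943 when 1 library was left out, lowest without DM-AA 3, 2444 with DESeq2 and 3068 after correction for GC and length; 2580 of the 3230 genes (79.9%) were called in the same direction after that correction. Without TMM 56.9% of calls were higher, against 47.6%. DM libraries of the same replicate number did not deviate together. The correlation of deviations was -0.028, 0.010 and -0.0051 for numbers 1, 2 and 3. Over all pairs of a DM-AA with a DM-PBS library it was -0.042 to 0.046. The replicate block gave 3053 calls. Under all alternatives 456 to 824 genes differed between media. Of 303 genes, those named in the text and those the naming rule gave but the text leaves out, 270 kept their direction and their side of the threshold under all alternatives. Calls of genes in the text that were lost and are not given elsewhere were those of Dock5, Irs2, Rxrb, Cdk6 and Rbl2, each under at least 1 alternative. Plk1, Eno3, Slc16a1, Ddit3, Spry1 and Col1a1 passed the test after correction for GC and length (adjusted p = 0.00938, 0.0107, 0.00306, 0.0436, 0.0355 and 0.0018, edgeR). The cause was not tested. At this depth changes in genes of few reads were not detectable unless large.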

Other observations

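Some abundant transcripts of the cytoskeleton and its adhesion sites, chosen after their values were seen and not a tested group, were lower with AA. Ahnak, a giant scaffold protein under the membrane, was at 5569, 5357 and 4778 CPM with PBS and 4118, 3688 and 3866 CPM with AA and fell by 0.43 ± 0.052. Plec (plectin), which ties intermediate filaments to other structures, fell by 0.32 ± 0.050, the intermediate filament Vim by 0.25 ± 0.045, the filamin Flna by 0.21 ± 0.051, the focal adhesion protein Zyx by 0.41 ± 0.044, the non-muscle myosin Myh9 by 0.20 ± 0.047 and the cytoplasmic actin Actb by 0.16 ± 0.045, a call lost without DM-AA 3 (adjusted p = 0.0756, edgeR). The smooth muscle actin Acta2, which young myotubes also make, rose by 0.24 ± 0.045 from 1912 ± 44.3 to 2264 ± 76.7 CPM. In each of these genes the AA libraries lay on one side of the PBS libraries.

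The 17 genes called at 4-fold or more had group means of at most 8.02 CPM. Clic5, a chloride channel family protein, rose by 2.77 ± 0.48 from 0.204, 0.123 and 0.377 CPM to 1.1, 1.96 and 1.91 CPM, Art3, a muscle ADP-ribosyltransferase family member, by 2.27 ± 0.32 and Apob, the apolipoprotein, by 2.10 ± 0.28 from 1.43, 1.11 and 1.76 CPM to 4.05, 7.84 and 6.58 CPM. Among the lower genes Ace, the angiotensin-converting enzyme, fell by 2.04 ± 0.27 from 5.29, 4.44 and 4.27 CPM to 1.23, 1.22 and 0.957 CPM, and Olr1, a receptor for oxidised LDL, by 2.18 ± 0.46. Such low genes carry standard errors several times those of abundant genes. These genes too were chosen after their values were seen.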
